A study of Mus musculus with 6 samples.

Results

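The genes described here encode the heterotrimeric G proteins and their immediate partners, and they were chosen by symbol alone. They are the protein-coding rows of the deposited table whose symbols name a Gα, Gβ or Gγ subunit, a membrane adenylyl cyclase or soluble Adcy10, or a numbered regulator of G protein signaling (RGS). There were 61 such genes among the 21397 genes of the table, of which 16428 are listed as protein-coding. They comprised 16 Gα, 5 Gβ, 13 Gγ, 10 adenylyl cyclase and 17 RGS genes.

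A ligand-bound G protein-coupled receptor makes the Gα subunit exchange GDP for GTP, and Gα and the Gβγ pair then separate and act on different enzymes and channels. Gs stimulates and Gi inhibits adenylyl cyclase, which makes cAMP, while Gq/11 activates phospholipase C, and G12/13 forms a further class. RGS proteins speed up GTP hydrolysis by Gα and so end the signal. Formyl peptide receptor 2 (FPR2) couples mainly to Gi proteins, and in the intestine G protein signaling is also known for its control of fluid secretion, hormone release from enteroendocrine cells and the chemosensory responses of tuft cells.

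RNA was sequenced from small intestinal organoids, which are epithelial cultures grown from crypts, derived from Fpr2f/f mice. Both groups carried the same floxed alleles of Fpr2, and no Cre is given for either. Organoids received the synthetic peptide MMK-1, an FPR2 agonist, at 1 μM for 5 days or the vehicle, 0.1% DMSO, with 3 libraries in each group. Each sample held organoids of 3 mice, so that animals cannot be told apart within a library, and the dose is 1 mM in the treatment label but 1 μM in the protocol. The comparison asks which G protein components differed in transcript level after 5 days of agonist.

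The libraries held 35512739 to 37537463 fragments. MMK-1 replicate 3 stood apart from the other MMK-1 libraries, with a chi-square over all genes, per degree of freedom, of 36.6 and 31.3 against them and of 2.83 to 4.97 for the other pairs within a group. Of the 6 epithelial markers, 2 rose, 3 fell and Epcam did not pass, with sums of 2362 to 2383 FPKM (fragments normalized for gene length and for the depth of the library) in control libraries and 1716 to 1867 FPKM under MMK-1. Vil1 and Krt20 were at least 2-fold lower. Marker sums of other cell types were 0.749 to 1.11 FPKM in control libraries and 0.629 to 0.753 FPKM under MMK-1 for leukocytes, and 0.100 to 0.205 and 0.127 to 0.301 FPKM for endothelium, of which Kdr was at 0 in every library. They were 5.80 to 6.26 and 3.64 to 5.24 FPKM for mesenchyme, most of it Vim, and 6.21 to 6.46 and 3.57 to 3.69 FPKM for neurons and glia, most of it Ret. By limma-voom on fragments the mesenchymal Pdgfrb fell, from 264, 246 and 243 fragments in control libraries to 51, 55 and 70 under MMK-1 (adjusted p = 1.63e-06), and so did the macrophage gene Csf1r, from 20, 23 and 23 to 0, 1 and 2 (adjusted p = 6.33e-05), which reached the filter of 10 fragments through the controls only. Of the genes tested, 48.5% rose and 24.7% fell under MMK-1, and the median log2 difference of all genes was 0.13, so that a member near this value moved like the typical gene.

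Levels of the members spanned a wide range (plot of FPKM by library). A mean of at least 1 FPKM over the 6 libraries, the filter of the main test, was reached by 20 of the 61 members. These were 7 Gα, 3 Gβ, 5 Gγ, 3 adenylyl cyclase and 2 RGS genes. The filter left out 41 members, of which 17 had a mean of at least 10 fragments per library and could be tested by limma-voom on the fragments that the FPKM values give back, and 24 had fewer. Gng8 had no fragment in any library, and a count of 0 allows up to 3 fragments in each.

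**Figure D1:**
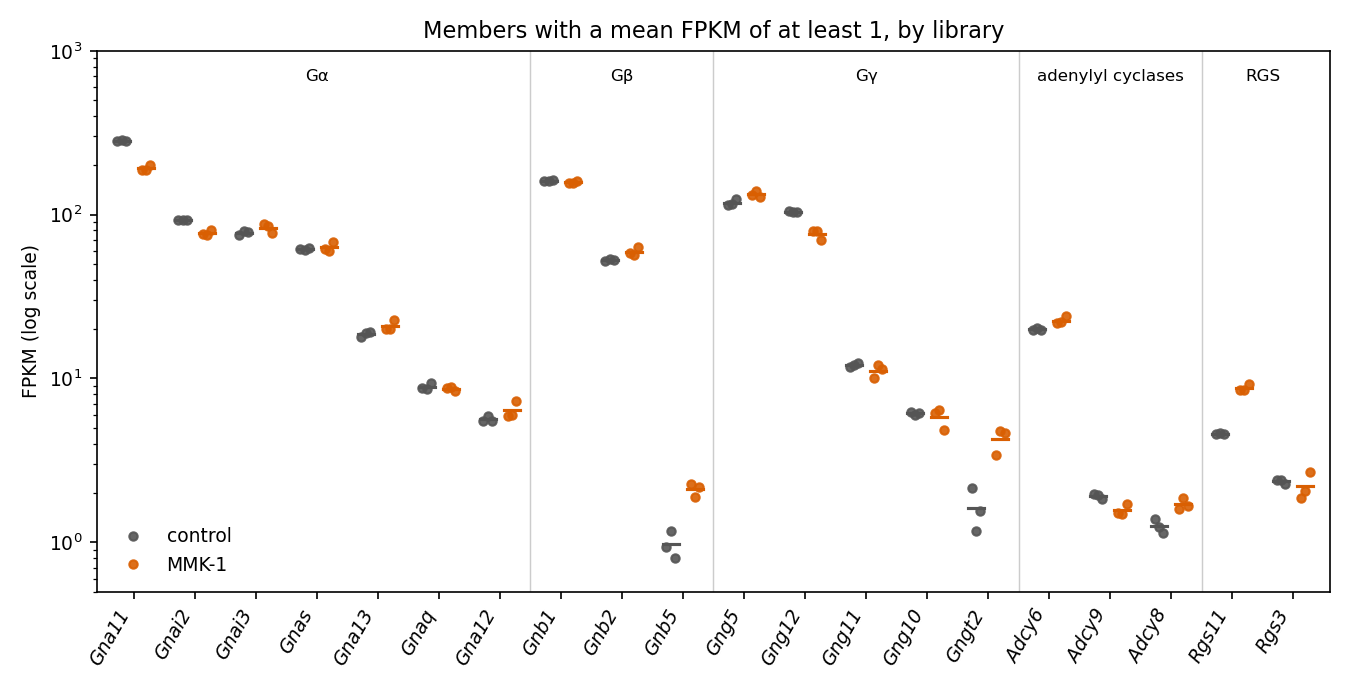
FPKM (log axis) of the 20 members with a mean of at least 1 FPKM, in groups by family and ordered by level. Points are the 3 control and 3 MMK-1 libraries and short lines are group means; Gna11, Gnai2 and Gng12 lay lower in every MMK-1 library, and Gnb5, Gngt2 and Rgs11 lay higher, while Gnas, Gnaq and Gnb1 overlapped.

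In the limma-trend test on log2(FPKM + 1), 8 of the 20 tested members (40%) rose and 4 (20%) fell under MMK-1, with adjusted p (Benjamini-Hochberg) no higher than 0.05, and 8 passed in neither direction. Of all genes, 48.5% rose and 24.7% fell, and whether the members' shares differ from these was not tested. Gnb5, among the 8, reached the filter only through its MMK-1 libraries. With median-ratio scaling 4 members passed as higher and 8 as lower (35.9% and 36.3% of all genes). The median log2 difference of the tested members was 0.07, against 0.13 for all genes, and 12 of the 20, or 60%, had groups that did not overlap, against 76.8% of all genes. Gngt2 was the only tested member at least 2-fold higher on this scale, where 3.39% of all genes were, and none was at least 2-fold lower, against 3.65% of all genes.

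Promoter sequences are shown for the most abundant member that fell, Gna11, for Gnb5 and for Rgs16, the member with the highest fold change among those fitted. They are the 250 bases before the RefSeq start on GRCm38.p6, written 5′ to 3′ on the strand of the gene, with matches on either strand to the GC box GGGCGG and the CCAAT box in capitals. The windows are chr10:81545163-81545412 on the minus strand, chr9:75306038-75306287 on the plus strand and chr1:153740103-153740352 on the plus strand.
Gna11: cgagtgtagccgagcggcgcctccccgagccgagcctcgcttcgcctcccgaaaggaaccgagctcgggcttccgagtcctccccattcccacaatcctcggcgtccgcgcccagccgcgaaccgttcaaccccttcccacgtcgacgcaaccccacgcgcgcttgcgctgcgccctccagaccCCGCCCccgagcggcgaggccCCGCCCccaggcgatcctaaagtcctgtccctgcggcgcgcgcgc
Gnb5: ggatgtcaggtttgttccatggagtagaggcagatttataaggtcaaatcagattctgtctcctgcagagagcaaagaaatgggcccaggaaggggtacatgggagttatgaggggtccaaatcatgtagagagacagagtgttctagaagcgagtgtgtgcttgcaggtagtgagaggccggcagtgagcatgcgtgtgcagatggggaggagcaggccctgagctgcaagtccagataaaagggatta
Rgs16: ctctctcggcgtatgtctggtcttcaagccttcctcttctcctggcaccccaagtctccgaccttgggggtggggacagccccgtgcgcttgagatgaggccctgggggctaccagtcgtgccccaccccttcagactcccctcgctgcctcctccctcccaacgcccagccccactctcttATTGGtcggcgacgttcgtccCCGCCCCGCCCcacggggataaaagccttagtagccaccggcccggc
The Gna11 window had 2 GC boxes and 73.2% G and C, and the Rgs16 window had 2 GC boxes, which share a base, and 1 CCAAT box with 66.4% G and C. The Gnb5 window held none of the motifs searched and had 50.8% G and C. RefSeq windows were matched for 47 of the members, in 63 windows. The GC box was present in 49.2% of these windows and in 32.7% of all 32851 windows of the same length, the CCAAT box in 30.2% and 33.8%, and the AP-1 site TGANTCA in 7.94% and 6.75%. The cAMP response element TGACGTCA, the site through which CREB proteins answer cAMP, was in 0 of the members' windows and in 1.55% of all windows. A match is a description of the letters only.

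Among the Gα genes, Gna11, Gnai2, Gnai3 and Gnas were the most abundant. Gna11 and Gnai2 fell with MMK-1, Gna13 rose slightly, and Gnas, Gnaq, Gnai3 and Gna12 did not pass the test.

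Gna11, which activates phospholipase C, was the member with the highest level of all 61. It lies at chr10:81528724-81545162 of GRCm38. Its level was 279, 284 and 282 FPKM in control libraries and 188, 188 and 202 FPKM under MMK-1. All 3 MMK-1 libraries lay far below all controls, and the spread within each group was small beside the gap. The means were 282 ± 2.48 and 193 ± 7.81 FPKM (SD, n = 3 libraries each), a log2 fold change of -0.55 (SE 0.0407, adjusted p = 4.26e-06, limma). The difference lay 0.68 below the median of all genes (log2 difference minus median, -0.68). The exact two-sided permutation p was 0.1, the smallest that 3 libraries against 3 allow, and the same was true of every other member whose groups did not overlap. In these bulk samples, fewer cells of a type that expresses a gene and less RNA of it per cell cannot be told apart.

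Gnai2, an inhibitor of adenylyl cyclase, also fell. Its level was 92.2, 93.0 and 92.4 FPKM in control libraries and 76.1, 75.5 and 80.4 FPKM under MMK-1, and the groups did not overlap. MMK-1 over control gave a log2 fold change of -0.26 (SE 0.0395, adjusted p = 0.000375, limma). Gnai3, its close relative with the same action, gave 75.0, 79.0 and 78.7 FPKM in control libraries and 87.3, 84.8 and 77.3 FPKM under MMK-1. MMK-1 replicate 3 lay within the control range and the other MMK-1 libraries above it. The log2 fold change of Gnai3 was 0.10 (95% interval -0.02 to 0.22, adjusted p = 0.122, limma), and without MMK-1 replicate 3 it was 0.15 with an adjusted p of 0.0035. It was -0.05 with median-ratio scaling, which divides each library by the median ratio of its genes to their geometric means, and after a correction for GC content it was -0.17 and passed as lower (adjusted p = 0.0018, limma). The ratio of Gnai3 to Gnai2, which does not depend on the scaling of libraries, was 0.813, 0.849 and 0.852 in controls and 1.15, 1.12 and 0.961 with MMK-1 (exact permutation p = 0.1).

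Gnas encodes the Gα subunit that stimulates adenylyl cyclase. Its level was 61.8, 61.0 and 62.1 FPKM in control libraries and 61.7, 59.98 and 67.8 FPKM under MMK-1. The groups overlapped, with MMK-1 replicate 3 above all other libraries. The log2 fold change was 0.03 (95% interval -0.08 to 0.15, adjusted p = 0.577, limma), and it turned negative in some alternatives. With median-ratio scaling Gnas passed as lower, at -0.11 (adjusted p = 0.041, limma). The Gnas locus holds several overlapping transcripts and antisense genes, which the table does not separate, and how far reads were assigned by strand is not stated. Gnaq, the second widely expressed Gα of the phospholipase C class, was at 8.76, 8.61 and 9.33 FPKM in control libraries and 8.77, 8.85 and 8.33 FPKM under MMK-1. These values overlapped, with a log2 fold change of -0.04 (95% interval -0.15 to 0.08, adjusted p = 0.518, limma). Gnaq passed as lower with median-ratio scaling (-0.17, adjusted p = 0.016, limma) and with GC correction (-0.17, adjusted p = 0.0128, limma).

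Both Gα genes of the G12/13 class differed little between the groups. Gna13 was at 18.0, 19.0 and 19.1 FPKM in control libraries and 20.1, 20.03 and 22.7 FPKM under MMK-1, and the groups did not overlap. Its log2 fold change of 0.15 (SE 0.0564, adjusted p = 0.0348, limma) was close to the median of all genes. The call was lost with upper-quartile scaling, median-ratio scaling and GC correction (adjusted p = 0.208, 0.821 and 0.873, limma), over every gene above 0 (0.0724) and without control replicates 1, 2 or 3 (0.119, 0.0676 and 0.0617). Gna12 was at 5.48, 5.94 and 5.52 FPKM in control libraries and 5.87, 6.03 and 7.26 FPKM under MMK-1. MMK-1 replicate 1 lay within the control range, and the log2 fold change was 0.15 (95% interval -0.02 to 0.32, adjusted p = 0.104, limma), and 0.06 without MMK-1 replicate 3.

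**Figure D2:**
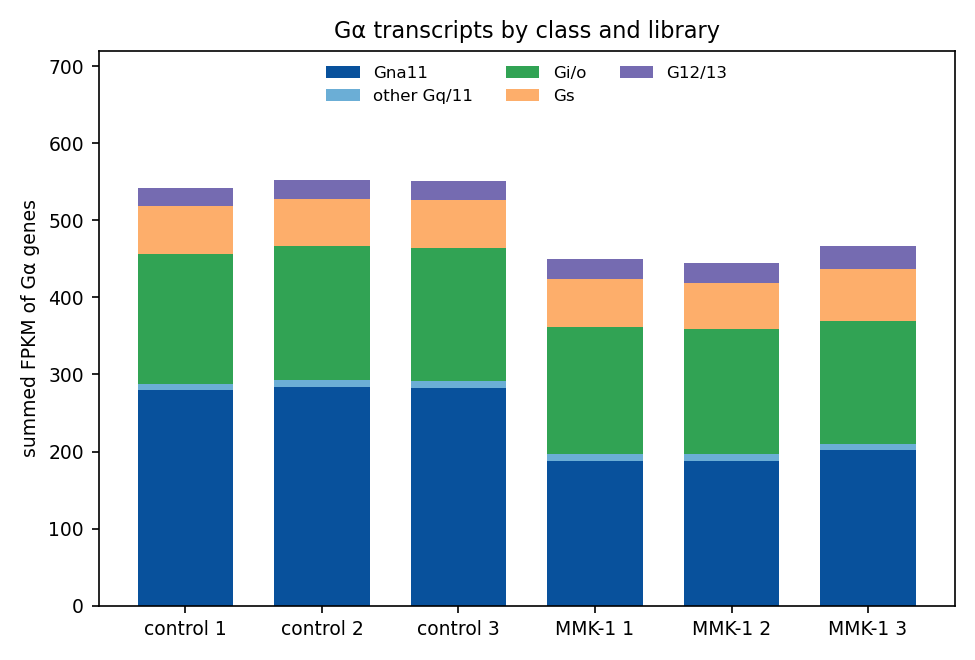
Summed FPKM of the 16 Gα genes in each library, stacked by class (Gna11 apart from the other Gq/11 genes; Gi/o, Gs and G12/13). The bars of the MMK-1 libraries are shorter, at 445 to 467 FPKM against 542 to 553 FPKM, and most of the gap lies in the Gna11 segment.

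The make-up of the Gα transcripts shifted accordingly (stacked bars by Gα class). Summed over all 16 genes, Gα transcripts were at 542, 553 and 551 FPKM in control libraries and 450, 445 and 467 FPKM under MMK-1, a ratio of 0.828. This sum was lower with MMK-1 under every scaling tried, with ratios of 0.747 to 0.843. The share of Gna11 in it was 51.5%, 51.5% and 51.2% in controls and 41.8%, 42.2% and 43.1% with MMK-1. The share of the Gi/o class was 31.2% ± 0.170 in controls and 35.7% ± 1.43 with MMK-1, that of Gs 11.3% ± 0.186 and 14.0% ± 0.544, and that of G12/13 4.44% ± 0.0928 and 6.01% ± 0.345 (SD, n = 3 each). Shares add up to the whole, so that the fall of Gna11 raises the others. In FPKM the summed Gi/o class was lower with MMK-1, at 171 ± 2.67 and 162 ± 2.94, and the Gs class overlapped between the groups, though not with median-ratio scaling, where it was lower (ratio 0.926). The summed G12/13 class was higher, at 23.5 to 24.9 FPKM in control libraries and 26.0 to 29.9 FPKM under MMK-1 (ratio 1.12), and overlapped with upper-quartile and median-ratio scaling.

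Of the 9 Gα genes under the filter, 4 had enough fragments for the test by limma-voom on fragments, in which 45.3% of 13307 genes were higher and 23.4% were lower. Gnai1, the third inhibitory Gα of this group, had 9, 27 and 24 fragments in control libraries and 67, 46 and 30 under MMK-1. The groups were separated by only a few fragments, with a log2 fold change of 1.34 (SE 0.461, adjusted p = 0.0234, limma-voom), and the adjusted p was 0.105 without control replicate 1, where the log2 fold change was 0.86, 0.0677 without MMK-1 replicate 1 and 0.0562 with median-ratio scaling. Gnao1, the Gα typical of neurons and endocrine cells, had 134, 155 and 151 fragments in control libraries and 161, 210 and 187 under MMK-1. The lowest MMK-1 library lay just above the highest control, with a log2 fold change of 0.39 (SE 0.143, adjusted p = 0.0328, limma-voom), and the call was lost when any of 4 libraries was left out (control replicates 1, 2 or 3 or MMK-1 replicate 2) and with median-ratio scaling.

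Gnal, the olfactory Gα that stimulates adenylyl cyclase, had 114, 103 and 99 fragments in control libraries and 118, 137 and 132 under MMK-1. The groups did not overlap, yet the test was not passed (log2 fold change 0.34, adjusted p = 0.0654, limma-voom). Gnal shares 7.63% of its annotated exon bases with Mppe1 on the opposite strand, whose fragments were 547, 612 and 577 in controls and 204, 218 and 229 with MMK-1. Gnat2, the cone transducin α subunit, overlapped between the groups with 26 to 43 fragments in control libraries and 32 to 43 under MMK-1. The other 5 had a mean of at most 8.67 fragments. Among them was Gnat3, the gustducin α subunit found in taste and tuft cells, with a single fragment over all 6 libraries, read as the lowest count that the FPKM values allow.

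Of the Gβ genes, Gnb1 and Gnb2 made up nearly all transcripts. Gnb5 and Gnb2 rose and Gnb1 did not pass the test. Gnb5 differs from the other Gβ subunits in pairing with RGS proteins of the R7 class (Rgs6, Rgs7, Rgs9 and Rgs11) in place of a Gγ subunit.

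Gnb1 was at 160, 161 and 163 FPKM in control libraries and 157, 157 and 161 FPKM under MMK-1. The groups overlapped, and the log2 fold change was -0.03 (95% interval -0.11 to 0.05, adjusted p = 0.475, limma). Gnb1 passed as lower with upper-quartile scaling (-0.11, adjusted p = 0.0087, limma), median-ratio scaling (-0.18, adjusted p = 0.000707, limma) and GC correction (-0.14, adjusted p = 0.000887, limma). Gnb2 was at 51.8, 53.7 and 53.2 FPKM in control libraries and 58.2, 56.9 and 63.3 FPKM under MMK-1, with no overlap. Its log2 fold change of 0.17 (SE 0.0481, adjusted p = 0.0125, limma) lay 0.03 above the median of all genes and was 0.02 with median-ratio scaling (adjusted p = 0.655). The call was also lost with upper-quartile scaling and GC correction (adjusted p = 0.0957 and 0.341, limma). As a share of all Gβ transcripts, which does not depend on scaling, Gnb2 went from 24.6% ± 0.257 to 27.0% ± 0.800 (SD, n = 3 each, exact permutation p = 0.1).

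Gnb5 was much less abundant, at 0.936, 1.17 and 0.807 FPKM in control libraries and 2.28, 1.89 and 2.16 FPKM under MMK-1. Every MMK-1 library lay well above every control. MMK-1 over control gave a log2 fold change of 0.66 on log2(FPKM + 1) (SE 0.0842, adjusted p = 0.000119, limma) and 1.13 on fragments (86, 108 and 74 against 199, 167 and 197 fragments, adjusted p = 0.00017, limma-voom). The smaller value on the first scale comes from the pseudocount of 1. Gnb5 shares 7.96% of its annotated exon bases with the antisense gene Gm19531. The other Gβ genes, Gnb3 and Gnb4, had a mean of at most 0.833 fragments.

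The Gγ genes moved in both directions. Gngt2 and Gng5 rose and Gng12 fell, and in the test on fragments the rare Gng7 and Gngt1 fell and Gng2 rose.

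Gng5 and Gng12, both widely expressed Gγ subunits, made up most of the Gγ transcripts. Gng12 was at 105, 104 and 103 FPKM in control libraries and 79.3, 79.6 and 70.3 FPKM under MMK-1. All MMK-1 libraries lay far below the controls, and the log2 fold change was -0.45 (SE 0.0527, adjusted p = 7.53e-05, limma). Gng5 was at 114, 115 and 124 FPKM in control libraries and 132, 139 and 129 FPKM under MMK-1, and the groups did not overlap. Its log2 fold change was 0.17 (SE 0.0481, adjusted p = 0.00979, limma), it lay 0.04 above the median of all genes, and it was 0.03 with median-ratio scaling. The call was lost with median-ratio and upper-quartile scaling (adjusted p = 0.633 and 0.12, limma). After GC correction Gng5 passed as lower, at -0.19 (adjusted p = 0.0284, limma). The ratio of Gng12 to Gng5 was 0.921, 0.904 and 0.830 in controls and 0.601, 0.573 and 0.546 with MMK-1. The groups of this ratio did not overlap (exact permutation p = 0.1), and no scaling of libraries can change it. The summed Gγ level overlapped between the groups, at 241 to 250 FPKM in control libraries and 222 to 243 FPKM under MMK-1, and was lower without overlap with upper-quartile and median-ratio scaling (ratios 0.898 and 0.859).

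Gngt2, known as the Gγ subunit of cone transducin, was at 2.13, 1.17 and 1.55 FPKM in control libraries and 3.42, 4.78 and 4.62 FPKM under MMK-1. The groups were well apart, although the controls spread widely among themselves. This was a log2 fold change of 1.02 (SE 0.144, adjusted p = 0.000223, limma). On this scale, which understates changes of low genes, it lay just past 2-fold, and left-out libraries put it between 0.89 and 1.16, under 2-fold without control replicate 2, MMK-1 replicate 2 or MMK-1 replicate 3. On fragments the log2 fold change was 1.43 (adjusted p = 0.000415, limma-voom) and 1.21 to 1.65 with a library left out, and the ratio of mean FPKM was 2.64. Gngt2 shares 12.5% of its annotated exon bases with Abi3 on the opposite strand, and Abi3 had 98, 109 and 96 fragments in control libraries and 237, 280 and 331 under MMK-1. Since counting by strand is not stated, reads on the bases that this pair shares cannot be told apart.

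Gng11 and Gng10 overlapped between the groups. Gng11 was at 11.7, 12.1 and 12.4 FPKM in control libraries and 10.04, 12.1 and 11.4 FPKM under MMK-1 (log2 fold change -0.10, 95% interval -0.25 to 0.04, adjusted p = 0.172, limma), and it passed as lower with upper-quartile scaling, median-ratio scaling and GC correction. Gng10 was at 6.25, 6.02 and 6.14 FPKM in control libraries and 6.13, 6.41 and 4.86 FPKM under MMK-1, where MMK-1 replicate 3 was lowest. MMK-1 over control gave a log2 fold change of -0.08 (95% interval -0.27 to 0.12, adjusted p = 0.434, limma), and 0.03 without that library. Gng10 shares 72.0% of its exon bases with a read-through gene on the same strand, so that its level is uncertain.

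Among the 8 Gγ genes under the filter, Gng7 had 118, 129 and 182 fragments in control libraries and 68, 85 and 103 under MMK-1. The groups did not overlap and the log2 fold change was -0.68 (SE 0.219, adjusted p = 0.0169, limma-voom), with an adjusted p of 0.0602 without control replicate 3 and 0.0634 without MMK-1 replicate 1. Gngt1, the Gγ of rod transducin, had 14, 27 and 22 fragments in control libraries and 3, 10 and 5 under MMK-1 (log2 fold change -1.77, SE 0.506, adjusted p = 0.00931, limma-voom). Few fragments lay behind each Gngt1 value, but every MMK-1 library was below every control. Gngt1 reached the filter of 10 fragments through the control libraries only, with a mean of 6 under MMK-1. Gng2 also passed, with 11, 6 and 6 fragments in control libraries and 13, 21 and 14 under MMK-1 (log2 fold change 1.09, adjusted p = 0.0451, limma-voom). Gng2 reached that filter through the MMK-1 libraries only, the call was lost with median-ratio scaling (adjusted p = 0.0789, limma-voom), and it shares 20.4% of its annotated exon bases with Gm48283 on the opposite strand. It is named for this call alone, after its values were seen. Gng4 did not differ beyond its spread, with 65 to 88 fragments in control libraries and 67 to 84 under MMK-1. The other 4 had a mean of at most 6.83 fragments, among them Gng13, a partner of gustducin in taste cells, with a single fragment over all 6.

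All 3 tested adenylyl cyclases passed the test, in which 48.5% of all genes rose and 24.7% fell, with Adcy6 and Adcy8 higher and Adcy9 lower. The largest differences lay in rarer members, where Adcy1 rose and Adcy3 fell.

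Adcy6, a cyclase inhibited by calcium, held 83.8% ± 0.937 of the summed adenylyl cyclase FPKM in controls and 85.3% ± 0.463 with MMK-1 (SD, n = 3 each). It was at 19.7, 20.3 and 19.8 FPKM in control libraries and 21.7, 22.0 and 23.9 FPKM under MMK-1. The groups did not overlap, but the log2 fold change of 0.17 (SE 0.0481, adjusted p = 0.0115, limma) was that of the typical gene, and it was 0.03 with median-ratio scaling (adjusted p = 0.545). The call was also lost with upper-quartile scaling (adjusted p = 0.0787, limma). Adcy8, stimulated by calcium and calmodulin, was at 1.38, 1.24 and 1.15 FPKM in control libraries and 1.59, 1.87 and 1.66 FPKM under MMK-1. Its log2 fold change was 0.26 (SE 0.0687, adjusted p = 0.00782, limma), and it remained past the threshold with median-ratio scaling (0.17, adjusted p = 0.0467).

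Adcy9, a broadly expressed cyclase, was at 1.97, 1.95 and 1.84 FPKM in control libraries and 1.52, 1.48 and 1.70 FPKM under MMK-1. All MMK-1 libraries lay below the controls, with a log2 fold change of -0.19 (SE 0.0603, adjusted p = 0.0209, limma). With the control replicates 1 or 2 or the MMK-1 replicates 1 or 2 left out, the adjusted p rose to between 0.0603 and 0.0723. The summed adenylyl cyclase level was 23.8 ± 0.352 FPKM in control libraries and 26.4 ± 1.34 FPKM under MMK-1 (SD, n = 3 each, ratio 1.11), and the ratio was 1.00 with overlapping groups after median-ratio scaling.

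Adcy1, like Adcy8 a calcium-stimulated cyclase, had 31, 42 and 52 fragments in control libraries and 148, 116 and 146 under MMK-1. The lowest MMK-1 library had more than the highest control by a wide margin, and the log2 fold change was 1.77 (SE 0.237, adjusted p = 6.23e-05, limma-voom). Adcy3, best known as the cyclase of olfactory neurons and primary cilia, had 44, 45 and 28 fragments in control libraries and 4, 5 and 9 under MMK-1. It had the lowest fold change of the members fitted, with a log2 fold change of -2.59 (SE 0.443, adjusted p = 0.000372, limma-voom) and a mean FPKM 6.32-fold lower. With a mean of 6 fragments under MMK-1, Adcy3 also reached the filter through the control libraries only, so that this rank is a description. Adcy3 shares 22.1% of its annotated exon bases with Cenpo on the opposite strand, which had 319, 292 and 301 fragments in control libraries and 318, 362 and 389 under MMK-1. Adcy2 overlapped between the groups, with 54, 29 and 46 fragments in control libraries and 17, 34 and 33 under MMK-1, and the remaining 4 cyclases had a mean of at most 8.33 fragments.

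**Figure D3:**
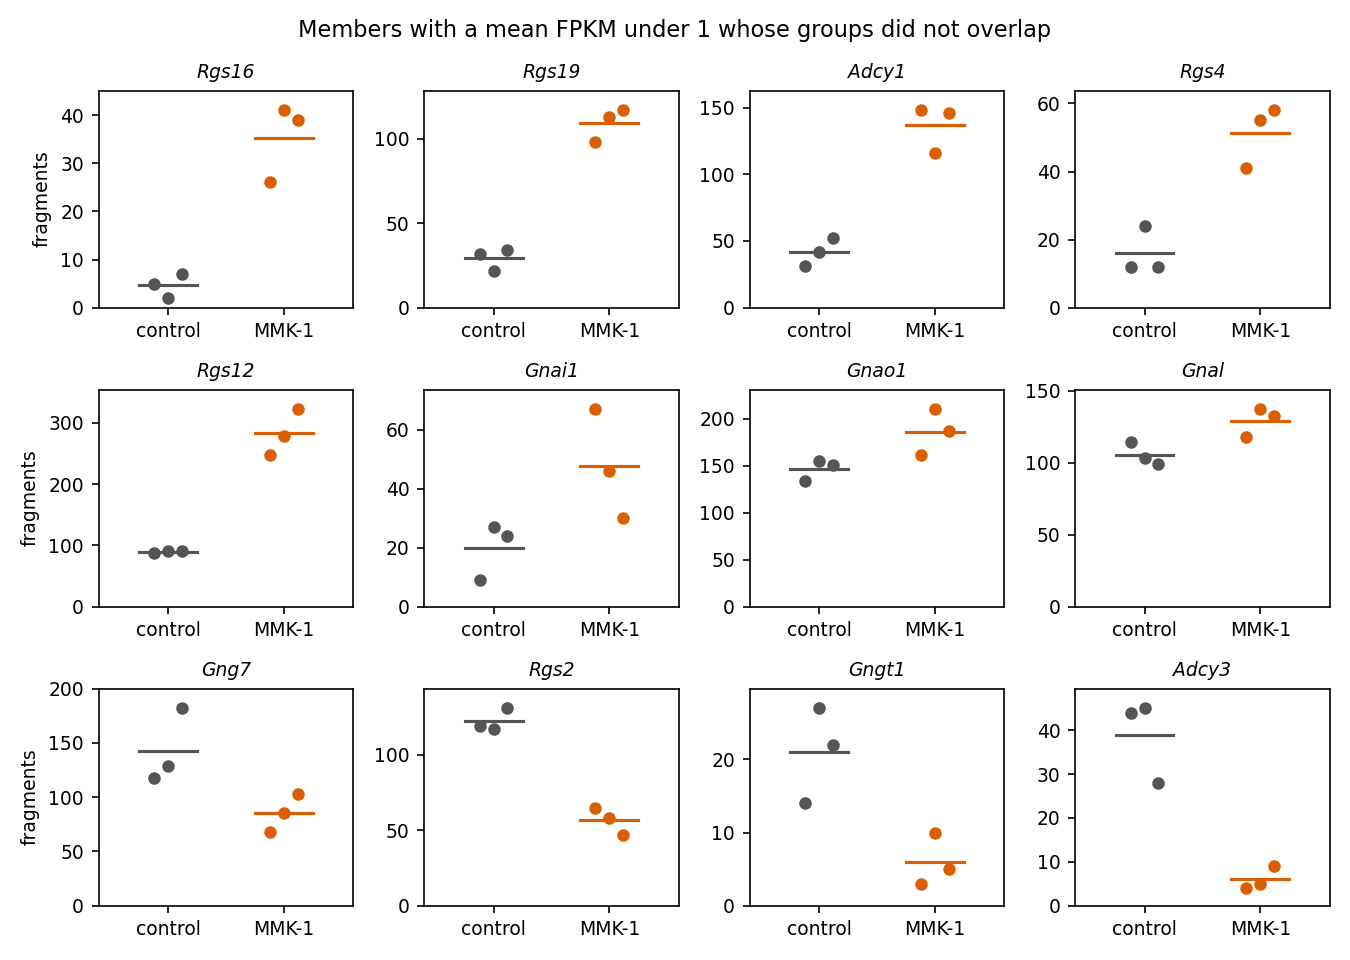
Fragments per library of the 12 members with a mean FPKM under 1, at least 20 fragments on average in a group and groups that did not overlap, ordered by log2 fold change. Points are libraries and lines are group means, on linear axes from 0 that differ between panels; Rgs16 had 2 to 7 fragments in control libraries and 26 to 41 under MMK-1, and Adcy3 had 28 to 45 and 4 to 9.

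RGS transcripts were scarce, and 15 of the 17 RGS genes lay under 1 FPKM. Rgs11 rose in the main test, and Rgs16, Rgs19, Rgs4 and Rgs12 rose and Rgs2 fell in the test on fragments (plot of fragments by library). The summed RGS level was 9.09, 9.34 and 9.19 FPKM in control libraries and 14.2, 14.7 and 16.3 FPKM under MMK-1. The groups did not overlap, the ratio of the means was 1.64, and under every scaling tried it lay between 1.48 and 1.67. Much of this rise lay in Rgs11, whose mean was 4.59 FPKM in control libraries and 8.76 FPKM under MMK-1. The mean of Rgs3 was 2.36 and 2.20 FPKM. Only 8 of the 17 had fragments enough to be fitted by limma-voom, Rgs16 among them through its MMK-1 libraries alone. Of these 8, 5 rose (62.5%) and 1 fell (12.5%), against 45.3% and 23.4% of all genes, a description of the members that passed the filter.

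Rgs11, a partner of Gnb5, was the most abundant RGS gene and lies at chr17:26202527-26211324 of GRCm38. It was at 4.55, 4.64 and 4.59 FPKM in control libraries and 8.45, 8.53 and 9.31 FPKM under MMK-1. The controls were nearly equal, and every MMK-1 library lay far above them. This was a log2 fold change of 0.80 (SE 0.051, adjusted p = 1.68e-06, limma), and the means differed 1.91-fold. It shares 3.28% of its annotated exon bases with Arhgdig on the opposite strand, which also rose, from 150, 109 and 128 fragments in controls to 395, 448 and 421 with MMK-1. The other R7 genes of the table, Rgs7 and Rgs9, had 3 to 7 and 0 to 2 fragments in control libraries and 7 to 11 and 2 to 9 with MMK-1, too few to be fitted.

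Rgs3, which acts on Gi and Gq, was at 2.41, 2.39 and 2.26 FPKM in control libraries and 1.86, 2.07 and 2.68 FPKM under MMK-1. MMK-1 replicate 3 lay above all controls and the other MMK-1 libraries below them. MMK-1 over control gave a log2 fold change of -0.08 (95% interval -0.28 to 0.13, adjusted p = 0.472, limma), and without that library it was -0.18 (adjusted p = 0.0225, limma).

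Rgs16, which acts on Gi and Gq and lies at chr1:153740353-153745468 of GRCm38, had the highest fold change of the members fitted. It had 5, 2 and 7 fragments in control libraries and 26, 41 and 39 under MMK-1. Control fragments were few, and every MMK-1 library had several times more than any of them. The log2 fold change was 2.96 (95% interval 1.87 to 4.05, adjusted p = 0.000302, limma-voom), and the mean FPKM was 7.82-fold higher, at 0.418 ± 0.092 against 0.0534 ± 0.0289 (SD, n = 3 each). With a control mean of 4.67 fragments, Rgs16 reached the filter of 10 only through the MMK-1 libraries, so that its rank among the members is a description. It shares 10.1% of its annotated exon bases with the antisense gene Gm28513, and reads on the shared bases cannot be told apart without strand.

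Rgs4, of the R4 class like Rgs16, had 12, 24 and 12 fragments in control libraries and 41, 55 and 58 under MMK-1 (log2 fold change 1.76, SE 0.344, adjusted p = 0.000922, limma-voom). Rgs19, which acts on Gi and Gz, had 32, 22 and 34 fragments in control libraries and 98, 113 and 117 under MMK-1 (log2 fold change 1.95, SE 0.241, adjusted p = 3.51e-05, limma-voom). Rgs12, a large RGS protein that also binds inactive Gi through a GoLoco motif, had 87, 90 and 91 fragments in control libraries and 247, 279 and 322 under MMK-1 (log2 fold change 1.70, SE 0.154, adjusted p = 3.33e-06, limma-voom). None of the 3 overlapped between the groups, and the controls of Rgs12 were nearly equal.

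Rgs2 went the other way. This regulator, which prefers Gq, had 119, 117 and 131 fragments in control libraries and 65, 58 and 47 under MMK-1. Every MMK-1 library had far fewer than every control, with a log2 fold change of -1.07 (SE 0.195, adjusted p = 0.000588, limma-voom). Rgs13 overlapped between the groups, with 26 to 54 fragments in control libraries and 40 to 53 under MMK-1. Of the 9 RGS genes that could not be fitted, none had a mean over 9.67 fragments. The highest of them was Rgs14, which is named for this rank after its values were seen, with 3, 0 and 6 fragments in control libraries and 14, 19 and 16 under MMK-1.

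**Figure D4:**
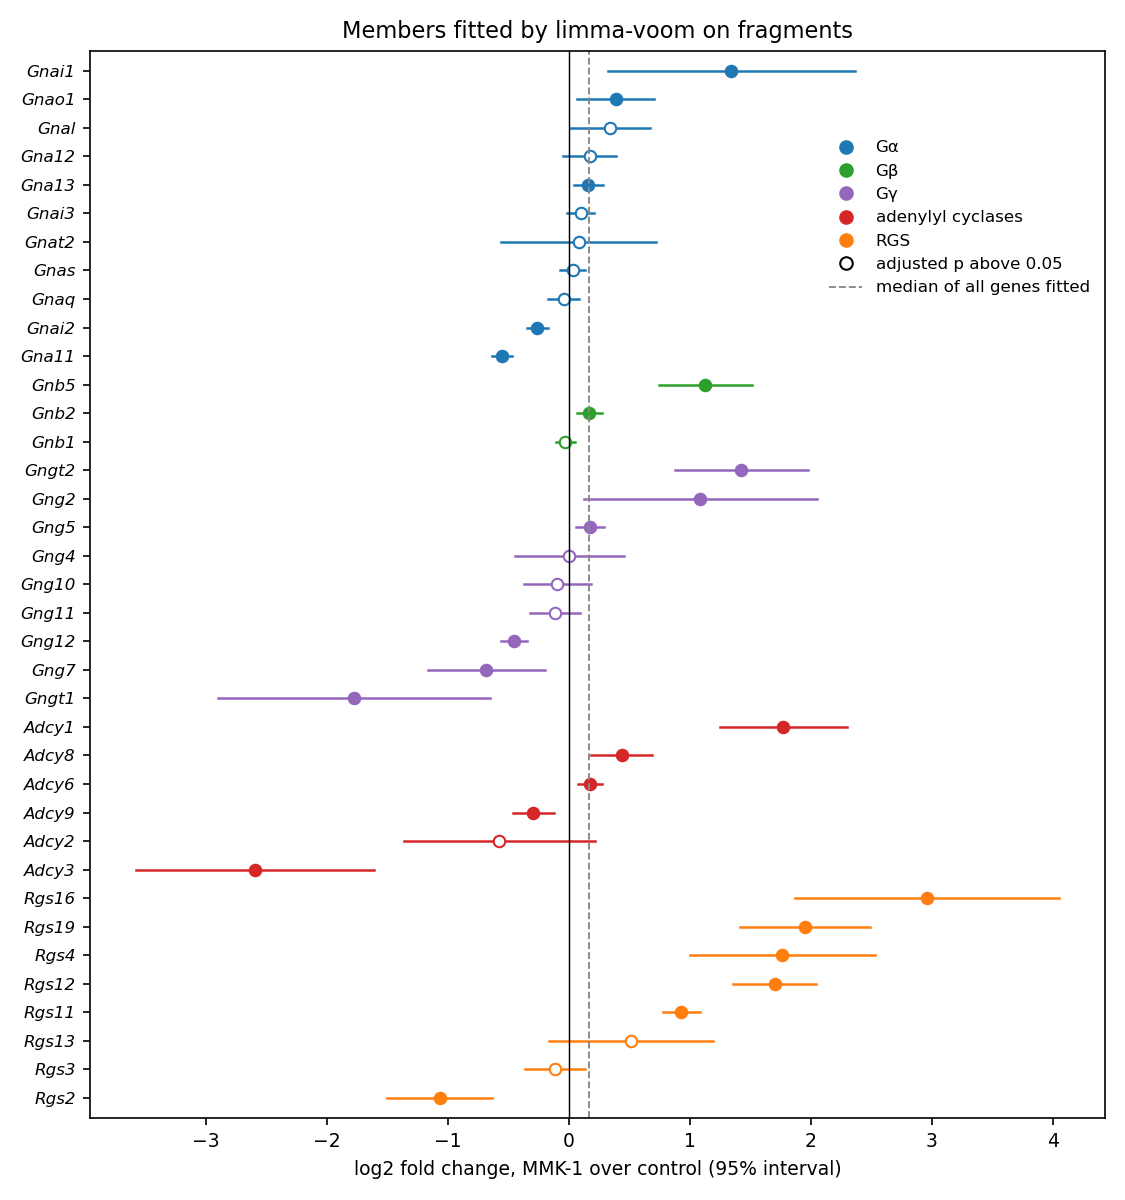
Log2 fold change of the 37 members that limma-voom could fit on fragments (x axis, MMK-1 over control, bars are 95% intervals), by family. Filled points passed an adjusted p of 0.05 and the dashed line is the median of all genes, 0.17; Rgs16 lies farthest to the right at 2.96 and Adcy3 farthest to the left at -2.59.

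Over all 37 members that limma-voom fitted, 16 (43.2%) rose and 8 (21.6%) fell, against 45.3% and 23.4% of all genes. Groups did not overlap for 25, or 67.6%, against 73.0% of all genes. At least 2-fold higher were 9 members (24.3%) and at least 2-fold lower were 3 (8.11%), against 10.4% and 6.75% of all genes (plot of log2 fold changes). Those 9 were Rgs16, Rgs19, Adcy1, Rgs4, Rgs12, Gngt2, Gnai1, Gnb5 and Gng2, and the 3 were Adcy3, Gngt1 and Rgs2. These counts are a description, since Rgs16, Gng2, Adcy3 and Gngt1 had fewer than 10 fragments on average in the group where they were lower. Median-ratio scaling moved the median of all genes from 0.17 to 0.01, the members to 9 higher and 12 lower, and all genes to 33.1% higher and 33.8% lower.

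Other genes of the pathway were read from a list of receptor kinases, arrestins, Gα chaperones and cAMP effectors. Of 59 symbols listed, which included older symbols of Grk2 and Grk3, 55 were in the table and 30 were tested. Of the 30, 15 rose, 6 fell and 9 did not pass, where 48.5% of all genes rose and 24.7% fell. Their median log2 difference was 0.15. On the log2(FPKM + 1) scale none of the 30 reached 2-fold, while the plain ratio of mean FPKM was 2.95 for Grk5 and 2.01 for Pkig. By limma-voom 46 could be fitted, of which 25 rose and 6 fell, where 45.3% and 23.4% of all genes did. Some of the rarer genes differed more, such as Prkar1b, a regulatory subunit of protein kinase A, with 7, 13 and 10 fragments in control libraries and 38, 49 and 42 under MMK-1 (log2 fold change 2.13, adjusted p = 0.000288, limma-voom), chosen after its values were seen. Among the 30, the largest rises on the log2(FPKM + 1) scale were those of Grk5, a kinase that phosphorylates active receptors, Pkig, an inhibitor of protein kinase A, and Creb1, the cAMP-responsive transcription factor. Grk5 was at 0.975, 0.871 and 0.732 FPKM in control libraries and 2.57, 2.43 and 2.60 FPKM under MMK-1 (log2 fold change 0.93, adjusted p = 3.59e-06, limma). With a control mean of 0.859 FPKM, Grk5 reached the filter of 1 FPKM through the MMK-1 libraries only, so that its rank is a description. Pkig was at 7.96, 7.96 and 7.28 FPKM in control libraries and 15.5, 14.5 and 16.6 FPKM under MMK-1 (0.92, adjusted p = 1.86e-06, limma), and Creb1 was at 4.66, 4.74 and 4.75 FPKM and 9.59, 9.88 and 7.49 FPKM (0.80, adjusted p = 5.18e-05, limma). In none of the 3 did the groups overlap. The largest falls among the 30 were smaller, with log2 fold changes of -0.30 for the cAMP phosphodiesterase Pde8b (adjusted p = 0.00218, limma), -0.27 for Prkacb, a catalytic subunit of protein kinase A (adjusted p = 0.00502, limma), and -0.24 for the phosphodiesterase Pde3a (adjusted p = 0.00464, limma).

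Markers of epithelial cell types moved in the same libraries. Of the 8 enterocyte markers, 7 fell and 1 rose, and their summed level was 7955 to 8090 FPKM in control libraries and 4708 to 5094 FPKM under MMK-1, beside the falls of Gna11, Gnai2 and Gng12. All 5 stem cell markers rose, from a sum of 44.3 to 44.8 FPKM to one of 306 to 320 FPKM, and all 6 Paneth cell markers rose, from 392 to 434 FPKM to 1275 to 1403 FPKM. Of the 7 goblet cell markers, 5 rose and 2 fell, and their sums overlapped. Of the 11 enteroendocrine markers 7 were tested and 5 rose, with sums of 152 to 164 FPKM in control libraries and 184 to 200 FPKM under MMK-1. Of the 11 tuft cell markers 1 was tested and rose, with sums of 4.86 to 5.62 FPKM and 5.86 to 6.48 FPKM. The part of these cell types in the differences of the members was not tested.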

How the data were processed

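RNA of 3 control and 3 MMK-1 organoid samples was sequenced as 150-base read pairs. The authors deposited FPKM values for 21397 genes, and per the labels HISAT2, HTSeq, R 3.2.0, DESeq2 and the build mm10 were used, with no roles or strand setting given. Fragments were recovered from the FPKM steps for 100% of genes (tolerance 0.02), and the limit that a count of 0 allows covers counting error only. Intervals on fold changes rest on the spread between libraries. Genes reaching a mean FPKM of 1 were tested with limma 3.58.1 (R 4.3.3, trend) on log2(FPKM + 1), with Benjamini-Hochberg adjustment over 10551 genes, which understates changes of low genes. Members under this filter were read from limma-voom on fragments (mean of at least 10, 13307 genes). P-values measure the spread between samples, which may be technical.

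Members were chosen by symbol, and members and lists were chosen with earlier results of these data known. Values were given for members at least 2-fold changed, the 3 largest differences per direction and the most abundant in each family, and for members under the filter with a mean of at least 20 fragments in a group and groups that did not overlap. Fits were tested on simulated data, in which few genes changed and no library stood apart. The libraries here differ in both respects, so that this test does not show how the fits did on them. Alternatives covered filters, pseudocount, scaling, unit, replicate block, left-out replicates, fold threshold and GC content. Exon overlaps come from GENCODE on GRCm38, and coordinates and promoters from RefSeq on GRCm38.p6. Python 3.11.15 was used for tables and plots. FPR family genes are not reported here.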

Additional observations from a re-analysis of the deposited data

How the results depend on the processing

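Of the 20 tested members, 8 were higher and 4 lower in the main test. The counts were 15 and 8 with a mean FPKM of at least 0.1 (38 members tested, 44% and 23.3% of all genes), 17 and 7 over every gene above 0 (60 tested, 28.1% and 15.2%), 16 and 8 by limma-voom on fragments (37 tested, 45.3% and 23.4%), 4 and 6 with upper-quartile scaling (41.7% and 31.2% of all genes), 4 and 8 with median-ratio scaling (35.9% and 36.3%) and 5 and 9 after GC correction (35.7% and 37.3%). The members tested by limma-voom gave 9 higher and 12 lower with median-ratio scaling (33.1% and 33.8% of all genes). At least 2-fold higher was 1 member (3.39% of all genes), with 9 by limma-voom (10.4%). There were 2 at a pseudocount of 0.1, 0 with upper-quartile scaling, median-ratio scaling or GC correction, and 3 at a fold threshold of 1.5. For these settings the share of all genes was not counted. At least 2-fold lower were 0 (3.65%), with 3 by limma-voom (6.75%). The other pathway genes had 15 of 30 higher, with 23 of 55 over every gene above 0 and 25 of 46 by limma-voom. Of all genes, 48.5%, 28.1% and 45.3% were higher in these fits. With 1 library left out, 7 to 9 members were higher and 3 to 5 lower (44.8% to 48.9% and 22.2% to 28.2% of all genes). At least 2-fold higher were 0 to 1. The counts in each direction depended on the scaling, which moved the median of all genes from 0.13 to 0.064 (upper quartile) and 0.0061 (median ratio).

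Direction turned for Gnai3 with median-ratio scaling (-0.048) and GC correction (-0.17), for Gnas with upper-quartile scaling (-0.048), median-ratio scaling (-0.11, passed as lower) and GC correction (-0.063), and for Gng5 after GC correction (-0.19). With 1 library left out, Gnas ranged from -0.019 to 0.068, Gng10 from -0.14 to 0.03 and Rgs3 from -0.18 to 0.0022. The cause was not tested. The calls of Gna11, Gnai2, Gnb5, Gng12, Gngt2, Adcy8 and Rgs11 held under every alternative run, and so did those of Adcy1, Adcy3, Gngt1, Rgs2, Rgs4, Rgs12, Rgs16 and Rgs19 in the limma-voom fits with a replicate block, with median-ratio scaling and with each library left out, which were chosen after seeing the data. Of these, Adcy3, Gngt1 and Rgs16 reached the fragment filter only through the group where they were higher, so that their calls are a description. The same holds for the call of Gnb5 in the main test, at the filter of 1 FPKM.

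Replicate numbers did not pair the samples: the correlation of deviations between same-numbered libraries was 0.025, -0.040 and 0.028. The replicate block gave 8 members higher and 4 lower (47.6% and 24.1% of all genes), with 1 at least 2-fold higher and 0 lower. Among the other pathway genes it gave 15 higher and 6 lower. Few fragments limit the members under 1 FPKM, and 24 of 61 lay under the limma-voom filter of 10 fragments.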
